A study of Mus musculus with 63 samples.

Results

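The hearts described here came from mice of a tet-off driver line and from nontransgenic mice, both on the FVB/N strain background and both taken at postnatal day 21 (P21, 3 weeks of age). A tet-off driver makes the tetracycline-controlled transactivator, which switches on a responder transgene when no tetracycline drug is given. The driver line served as a control for lines with a human mitofusin 2 transgene, so setting it against nontransgenic hearts shows what separates the control lines themselves. Members were the libraries whose titles begin with the P21 tet-off or the P21 nontransgenic name and that were prepared in the P21 batch. These were 11 of the series' 63 libraries, 5 tet-off and 6 nontransgenic. RNA came from frozen ventricular apex, and polyadenylated RNA was sequenced from single ends without regard to strand. The labels do not give the promoter of the driver, the founder line, the sex of the mice, the use of doxycycline or the hour of sampling.

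Several genes in this comparison belong to the glucocorticoid response. Glucocorticoid hormones enter cells and bind the glucocorticoid receptor, which then binds DNA at paired copies of a short element and raises the transcription of genes such as Fkbp5, Tsc22d3, Zbtb16 and Per1. FoxO transcription factors, which are active when insulin signalling is low, share some of these targets. In heart muscle both systems are known for their part in fuel choice and in the control of muscle mass. The circadian clock is a feedback loop in which CLOCK and ARNTL raise the Period and Cryptochrome genes, whose products in turn restrain them, and glucocorticoids also act on Period genes.

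The tet-off libraries held 11137353 to 14558036 counts and the nontransgenic libraries 5292335 to 14628413. Titles carry a number after the line's short name whose meaning the labels do not give. By it, 4 tet-off libraries were titled tetoff_10549 and 1 tetoff_10534, and 5 nontransgenic libraries ntg_10547 and 1 ntg_10583. No number occurred in both lines, so line and number cannot be told apart. Atrial marker genes summed to 11898 counts scaled to library size (CPM) in tet-off library tetoff_10549-2, against 622 to 1015 CPM in the other tet-off libraries. They summed to 8930 CPM in nontransgenic library ntg_10547-2, against 628 to 1564 CPM in its other libraries. The sum of 14 ventricular cardiomyocyte markers ran between 81912 and 122083 CPM in tet-off hearts and between 102205 and 130204 CPM in nontransgenic hearts. Ddx3y, a Y-linked gene, was at 25.4 CPM in 1 tet-off library and at 29.8 to 43.5 CPM in 3 nontransgenic libraries, and at 1.3 CPM or less in the rest. In bulk tissue, fewer cells of a type and less RNA per cell cannot be told apart. Nothing in the labels says that libraries of a line came from separate litters, so p-values measure the spread between these libraries.

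The human Mfn2 transcript, which neither control line should carry by its label, was measured in FPKM (fragments scaled to transcript length and library size). It was at 362 FPKM in tet-off library tetoff_10534-3, and at 26, 9.01, 9.13 and 6.36 FPKM in tet-off libraries tetoff_10549-2, tetoff_10549-3, tetoff_10549-4 and tetoff_10549-5. In nontransgenic libraries it had a lowest value of 5.48, a median of 15.5 and a highest value of 52.1 FPKM. Library tetoff_10534-3 thus stood apart, although below the 6 libraries of the Mfn2AA transgenic line at 1834 to 8051 FPKM, all of which are titled Mfn2AA_10534. The log2 difference between the lines was 0.42 (two-sided exact permutation test, p = 0.732, with 0.00433 the smallest p possible), and it was -0.57 without library tetoff_10534-3 (p = 0.486). Mouse Mfn2, the outer-membrane protein that fuses mitochondria, was at 1200, 812, 1061, 924 and 1337 CPM in tet-off hearts, against a lowest of 886, a median of 1038 and a highest of 1234 CPM in nontransgenic hearts (log2 fold change 0.01 ± 0.12 SE, adjusted p = 0.993). Pink1, the kinase that marks damaged mitochondria, and Park2, the ubiquitin ligase Parkin that it activates, were not called either. Their log2 fold changes were 0.04 ± 0.12 (adjusted p = 0.943) for Pink1 and -0.10 ± 0.18 (adjusted p = 0.897) for Park2.

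Few of all the tested genes were called between the lines. Of 13584 genes tested with edgeR's quasi-likelihood test, 222 (1.63%) were called at a Benjamini-Hochberg adjusted p under 0.05. Of all tested genes, 157 (1.16%) were higher in tet-off hearts and 65 (0.479%) lower, so 70.7% of the calls were rises. At least 2-fold change was reached by 33 rises and 10 falls, and the median absolute log2 fold change of the called genes was 0.60. An unadjusted p under 0.05 was reached by 1644 tested genes (12.1%). The CPM values of the lines did not overlap for 287 tested genes (2.11%), 149 of them called. Single libraries moved the count. It was 144 without nontransgenic library ntg_10547-3, 118 without nontransgenic library ntg_10547-5, 142 without tet-off library tetoff_10549-4 and 131 without tet-off library tetoff_10549-5. Without tet-off library tetoff_10534-3, the one with the human transcript, 196 genes were called, 117 higher and 79 lower, and 149 of them were among the 222. Without both libraries of high atrial marker sum, 173 were called and 137 of them were among the 222.

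**Figure D1:**
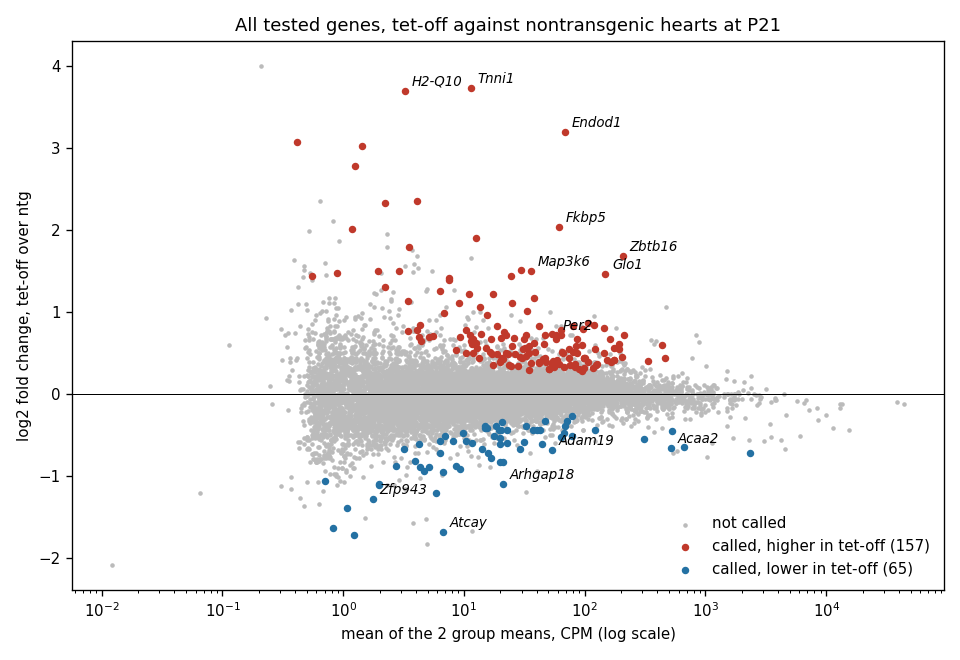
Log2 fold change of tet-off over nontransgenic hearts at P21 (vertical axis) against the mean of both group means in CPM (horizontal axis, log scale) for the 13584 tested genes. Grey points were not called; coloured points are the 157 genes called higher and the 65 called lower, with Endod1 at 3.20 and Arhgap18 at -1.09.

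Endod1, which encodes a protein with an endonuclease domain, had the smallest adjusted p of all tested genes and was the gene called in the same direction at all 3 ages. In the order tetoff_10534-3, tetoff_10549-2, tetoff_10549-3, tetoff_10549-4 and tetoff_10549-5, which is kept for all tet-off values that follow, it was at 101, 121, 135, 144 and 117 CPM. Nontransgenic libraries had a lowest of 10.4, a median of 12.3 and a highest of 21.3 CPM. Every tet-off value lay above every nontransgenic one, and the log2 fold change was 3.20 ± 0.18 (adjusted p = 1.52e-11). The gene lies on chromosome 9 at 14353990 to 14381242 (mm10, minus strand). At P1 it had 112, 143, 109, 113 and 129 CPM in 5 tet-off hearts, against a lowest of 9.57, a median of 11.6 and a highest of 20.6 CPM in 6 nontransgenic hearts. At 5 weeks it had 72.4, 86 and 46.4 CPM in tet-off hearts, against 9.78, 7.11, 7.44 and 6.86 CPM in nontransgenic hearts. The log2 fold changes were 3.14 ± 0.20 at P1 and 3.12 ± 0.27 at 5 weeks, and the P21 value differed from these by 0.07 ± 0.26 (adjusted p = 0.992) and 0.08 ± 0.30 (adjusted p = 1). Among the transgenic lines at P21, the Mfn2AA libraries, which share their title number with tetoff_10534-3, were at 84.4 to 161 CPM, and the Mfn2wt libraries, which carry the nontransgenic hearts' numbers, at 11 to 19.4 CPM.

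**Figure D2:**
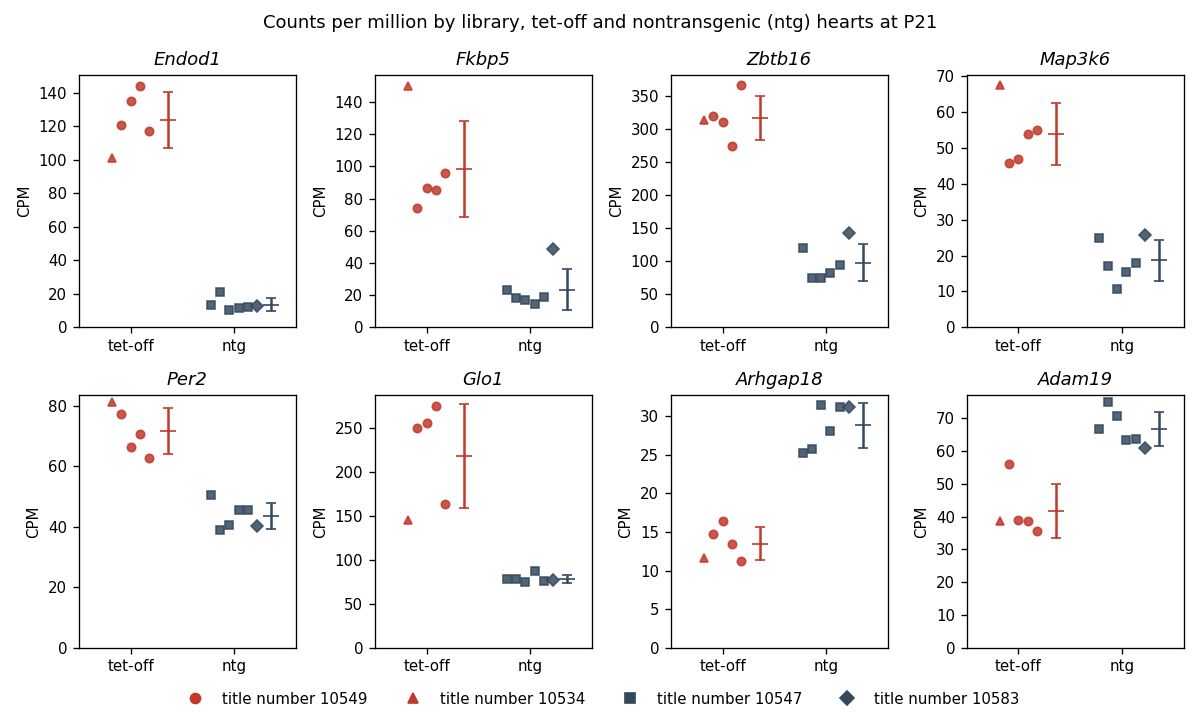
CPM in each library for 8 genes, tet-off hearts left and nontransgenic hearts right in each panel, with marker shape giving the title number and the bar giving mean ± SD (n = 5 tet-off, n = 6 nontransgenic). The lines do not overlap in any panel; Arhgap18 and Adam19 are lower in tet-off hearts and the other 6 genes higher.

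Of 25 glucocorticoid and FoxO target genes tested, 6 rose in tet-off hearts and none fell, and 20 had a positive log2 fold change. Of all tested genes 1.16% were called higher. The median of the 25 was 0.26, against -0.0037 over all tested genes. This list, like the others, was chosen with earlier results of these data known. The 6 were Fkbp5, Zbtb16, Ddit4, Foxo3, Klf15 and Tsc22d3. Fkbp5, a co-chaperone that lowers the receptor's affinity for hormone and is itself induced by it, was at 150, 74.4, 86.7, 85.6 and 95.9 CPM in tet-off hearts, against a lowest of 14.5, a median of 18.5 and a highest of 48.8 CPM in nontransgenic hearts. The groups did not overlap, and the log2 fold change was 2.04 ± 0.32 (adjusted p = 0.000562). Zbtb16, a zinc finger transcription factor induced by glucocorticoids in many cell types, was at 313, 319, 311, 274 and 367 CPM in tet-off hearts, against a lowest of 74.3, a median of 88.2 and a highest of 142 CPM in nontransgenic hearts. Its log2 fold change was 1.69 ± 0.22 (adjusted p = 0.000107), again with no overlap.

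The other called members changed less. Tsc22d3, the glucocorticoid-induced leucine zipper protein, was at 233, 239, 206, 229 and 250 CPM in tet-off hearts, against a lowest of 135, a median of 148 and a highest of 184 CPM in nontransgenic hearts (log2 fold change 0.61 ± 0.13, adjusted p = 0.012). Without the pair of libraries of high atrial marker sum its adjusted p was 0.0528. Klf15, a transcription factor that controls amino acid and lipid use in muscle, was at 84.1, 65.8, 73.3, 77.7 and 95.4 CPM in tet-off hearts, against a lowest of 37.4, a median of 48.3 and a highest of 58.4 CPM in nontransgenic hearts (log2 fold change 0.72 ± 0.15, adjusted p = 0.00981). For both genes each tet-off library was above each nontransgenic one. Foxo3, itself a FoxO factor, had a log2 fold change of 0.79 ± 0.17 (adjusted p = 0.0175). Its call ended without tet-off library tetoff_10534-3 (log2 fold change 0.66, adjusted p = 0.0617) without tet-off library tetoff_10549-5 (0.71, adjusted p = 0.0634) and with 1 title number per line, tetoff_10549 against ntg_10547 (0.68, adjusted p = 0.0768). Ddit4, an inhibitor of the growth kinase mTORC1, overlapped between the lines (log2 fold change 0.87 ± 0.21, adjusted p = 0.0319), and its call ended without any of ntg_10547-2, ntg_10547-3, ntg_10547-5, ntg_10583-1, tetoff_10534-3, tetoff_10549-4 and tetoff_10549-5 (adjusted p of 0.0695 to 0.109), and with 1 title number per line (0.137). The count of called members was 4 without tet-off library tetoff_10534-3 and 4 without tet-off library tetoff_10549-5.

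Members that did not pass the test included well-known targets. Per1 was at 193, 130, 106, 140 and 167 CPM in tet-off hearts, against a lowest of 115, a median of 130 and a highest of 167 CPM in nontransgenic hearts (log2 fold change 0.14 ± 0.15, adjusted p = 0.783). Sgk1, a kinase induced early by the receptor, had a log2 fold change of 0.07 ± 0.12 (adjusted p = 0.872), and Klf9 one of 0.26 ± 0.10 (adjusted p = 0.248). Trim63 and Fbxo32, the muscle ubiquitin ligases of atrophy that FoxO factors raise, had values of -0.32 ± 0.11 (adjusted p = 0.197) and -0.15 ± 0.13 (adjusted p = 0.694). Pdk4, the kinase that shuts off pyruvate entry, had 0.01 ± 0.43 (adjusted p = 0.998). Nr3c1, the gene of the glucocorticoid receptor, was lower in tet-off hearts, at 57.7, 64, 68.5, 65.5 and 61.4 CPM, against a lowest of 69.9, a median of 78.4 and a highest of 92.4 CPM in nontransgenic hearts. The groups did not overlap, and the log2 fold change was -0.32 ± 0.07 (adjusted p = 0.0195). That call ended without ntg_10547-3 (adjusted p = 0.0544), without tetoff_10534-3 (0.0521), without tetoff_10549-5 (0.0581) and with 1 title number per line (0.054). It also ended with the 2 groups alone in the fit (0.0778) and by limma on FPKM (0.0635).

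**Figure D3:**
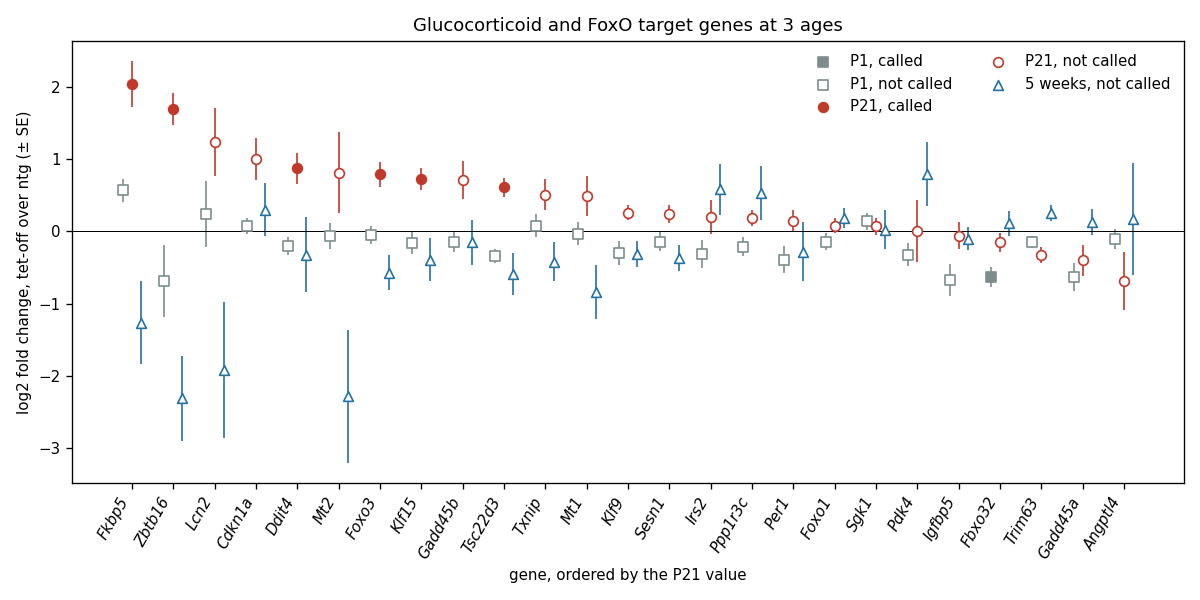
Log2 fold change of tet-off over nontransgenic hearts with its SE for the 25 glucocorticoid and FoxO target genes at P1, P21 and 5 weeks, ordered by the P21 value; filled markers were called and open markers were not. At P21, Fkbp5 (2.04) and Zbtb16 (1.69) lead the 6 called genes; at 5 weeks Zbtb16 was at -2.31 and Fkbp5 at -1.26, neither called.

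Among the other rises, Map3k6 and Fam107a are shown with their promoter sequences because these hold a relaxed form of the receptor's palindrome. Map3k6, a kinase of the stress-activated MAP kinase cascade, was at 67.5, 45.9, 47, 53.8 and 55 CPM in tet-off hearts, against a lowest of 10.8, a median of 17.5 and a highest of 25.7 CPM in nontransgenic hearts (log2 fold change 1.50 ± 0.20, adjusted p = 0.000144). Fam107a, an actin-binding protein induced by stress and glucocorticoids in brain, was at 40.1, 27.9, 35.8, 42.2 and 35.5 CPM in tet-off hearts, against a lowest of 8.21, a median of 12.3 and a highest of 16.8 CPM in nontransgenic hearts (log2 fold change 1.45 ± 0.23, adjusted p = 0.000771). Neither gene's groups overlapped. The sequences are the 250 bases before each gene's start in RefSeq on GRCm38.p6, at chr4:133240568-133240817 (plus strand) for Map3k6 and at chr14:8309778-8310027 (minus strand) for Fam107a. Capitals mark the match to GNACANNNTGTNC, which begins 181 bases before the start of Map3k6 and 120 bases before that of Fam107a.
Map3k6: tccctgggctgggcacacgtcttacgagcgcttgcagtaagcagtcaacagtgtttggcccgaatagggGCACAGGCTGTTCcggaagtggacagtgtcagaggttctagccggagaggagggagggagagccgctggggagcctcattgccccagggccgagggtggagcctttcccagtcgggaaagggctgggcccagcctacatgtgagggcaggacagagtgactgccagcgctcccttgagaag
Fam107a: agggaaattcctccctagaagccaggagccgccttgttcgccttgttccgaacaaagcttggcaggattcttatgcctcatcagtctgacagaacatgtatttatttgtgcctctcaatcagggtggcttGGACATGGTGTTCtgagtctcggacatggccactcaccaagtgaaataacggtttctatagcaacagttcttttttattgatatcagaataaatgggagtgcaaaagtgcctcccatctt
Both strands of the same window were searched in the 10015 tested genes that had a promoter in the RefSeq table. The match occurred in 35 of them (0.349%), in 3 of 125 genes called higher (2.4%; Tinagl1 is the other) and in 0 of 42 called lower. The stricter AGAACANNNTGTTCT, every copy of which also holds the relaxed form, occurred in 1 promoter, of a gene not called. Its left arm AGAACA occurred in 12.8% of all, in 8.8% of those called higher and in 3 of 42 called lower. CACGTG, the E-box letters bound by CLOCK and ARNTL, occurred in 9.89% of all promoters in 10.4% of those called higher, Fkbp5 and Klf15 among them, and in 10 of 42 called lower (23.8%). A match describes letters in this window and is not evidence of binding.

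Fam46b, Adh1 and Timp3 also rose without overlap. Fam46b, of a family of nucleotidyltransferases, was at 33.5, 53.3, 36.1, 45.8 and 52.4 CPM in tet-off hearts, against a lowest of 6.01, a median of 15.7 and a highest of 22.6 CPM in nontransgenic hearts (log2 fold change 1.52 ± 0.23, adjusted p = 0.000468). Adh1, which oxidises alcohols including retinol, was at 51.1, 58.8, 50, 43.8 and 61.6 CPM in tet-off hearts, against a lowest of 17.4, a median of 23.3 and a highest of 26.7 CPM in nontransgenic hearts (1.18 ± 0.16, adjusted p = 0.000139). Timp3, an inhibitor of matrix metalloproteinases, was at 291, 285, 269, 216 and 268 CPM in tet-off hearts, against a lowest of 135, a median of 146 and a highest of 209 CPM in nontransgenic hearts (0.73 ± 0.15, adjusted p = 0.00981). It was the called one among 33 collagen and matrix genes tested. To set beside this list and the endothelial one below, 1.63% of all tested genes were called. Aqp1, the water channel of capillary endothelium, was the called one of 16 endothelial markers (0.45 ± 0.10, adjusted p = 0.0142), with an adjusted p of 0.0549 without tet-off library tetoff_10549-3. The summed endothelial markers ran from 3101 to 3566 CPM in tet-off hearts and from 2823 to 3451 CPM in nontransgenic hearts, and their part in the Aqp1 result was not tested.

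Among 19 clock genes tested, Per2 was the called one, where 1.63% of all tested genes were called. Per2, a repressor of CLOCK and ARNTL which also answers to glucocorticoids, was at 81.4, 77.4, 66.3, 70.8 and 62.9 CPM in tet-off hearts, against a lowest of 39, a median of 43.1 and a highest of 50.6 CPM in nontransgenic hearts. The groups did not overlap (log2 fold change 0.72 ± 0.12, adjusted p = 0.00085). The median of the 19 genes was -0.01. Arntl was at 3.21, 2.27, 1.37, 1.88 and 1.99 CPM in tet-off hearts, against a lowest of 1.74, a median of 2.93 and a highest of 4.26 CPM in nontransgenic hearts, which overlap (-0.43 ± 0.26, adjusted p = 0.541). Dbp and Nr1d1, outputs of the loop with large daily swings, had log2 fold changes of 0.07 ± 0.16 (adjusted p = 0.917) and -0.01 ± 0.20 (adjusted p = 0.993).

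Hypoxia genes had 4 rises and no fall among 18 tested, with a median log2 fold change of 0.14. Of all tested genes 1.16% were called higher. Hif3a, a member of the hypoxia-inducible factor family with restraining splice forms, was at 15, 9.74, 7.42, 10.7 and 12.7 CPM in tet-off hearts, against a lowest of 2.2, a median of 3.81 and a highest of 6.26 CPM in nontransgenic hearts (log2 fold change 1.42 ± 0.23, adjusted p = 0.000754). Its groups did not overlap and no alternative ended the call. The other rises were smaller and less stable. Ndrg1, a differentiation-linked gene of the response, had 0.37 ± 0.09 (adjusted p = 0.024), a call that ended without ntg_10547-5, tetoff_10549-3, tetoff_10549-4 or tetoff_10549-5 (0.0502 to 0.0743). Slc2a1, the basal glucose transporter, had 0.63 ± 0.15 (adjusted p = 0.0341), ended without ntg_10547-1, ntg_10547-3, ntg_10547-5, ntg_10547-7, tetoff_10534-3, tetoff_10549-3 or tetoff_10549-5 (0.0612 to 0.134). P4ha1, a subunit of collagen prolyl hydroxylase, had 0.41 ± 0.11 (adjusted p = 0.0493), ended without ntg_10547-1, ntg_10547-2, ntg_10547-3, ntg_10547-5, tetoff_10549-2, tetoff_10549-3 or tetoff_10549-5 (0.0673 to 0.14). Vegfa, the main angiogenic factor of the response, had -0.01 ± 0.09 (adjusted p = 0.978).

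Called genes were unevenly spread over the chromosomes. On chromosome 17, 30 of 668 tested genes were called (4.49%), 21 of them higher, against 0.381% to 2.59% on the other chromosomes. At P1 9 of its 661 tested genes were called and at 5 weeks 0 of 666. Over all genes 1.3% were called at P1 and 0.117% at 5 weeks. Within 10 Mb of the Glo1 gene 24 of 345 tested genes were called (6.96%), 18 higher and 6 lower, and on the rest of the chromosome 6 of 323 (1.86%). The chromosome and the gene at the window's centre were chosen by their calls in these same values. The shares therefore describe where the calls lie and are no test of the region. Glo1, glyoxalase 1, which detoxifies methylglyoxal made in glycolysis, lies at 30592862 to 30612659 (mm10, minus strand). It was at 146, 251, 256, 276 and 164 CPM in tet-off hearts, against a lowest of 75.3, a median of 77.6 and a highest of 87.5 CPM in nontransgenic hearts (log2 fold change 1.47 ± 0.19, adjusted p = 0.000107). Tet-off libraries tetoff_10534-3 and tetoff_10549-5 were the lower ones of their line, yet above every nontransgenic library. At P1 Glo1 was at 69.7 CPM in tetoff_10587-3 and at 165 to 226 CPM in the other tet-off libraries. Nontransgenic libraries of P1 had 72.1 to 84.1 CPM. At 5 weeks nontransgenic library ntg_10287-6 had 170 CPM and the others 39.5 to 64.4 CPM, against 81.3 to 133 CPM in tet-off libraries. Dnahc8, an axonemal dynein gene next to Glo1, had 1.80 ± 0.37 at P21 (adjusted p = 0.00955, and 0.0532 without both libraries of high atrial marker sum). Fkbp5, at 28399095 to 28486112 on the minus strand, lies within the same window.

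The window also holds the mouse MHC, whose class I and II genes present peptides to T cells. Of 17 tested genes of the MHC list, 3 rose and 1 fell, with a median log2 fold change of 0.28. Over all tested genes 1.63% were called. Outside that list, H2-Q2, H2-K2 and H2-Ea-ps of the window were called too. H2-Q2 was at 1.61, 6.55, 3.46, 4.88 and 2.4 CPM in tet-off hearts. Nontransgenic hearts had a lowest of 0.137, a median of 0.71 and a highest of 1.02 CPM (2.34 ± 0.40, adjusted p = 0.00126). H2-Q10, a class I gene best known from liver, was at 0.736, 9.49, 7.13, 8.85 and 4.06 CPM in tet-off hearts, against a lowest of 0.2, a median of 0.439 and a highest of 0.705 CPM in nontransgenic hearts (3.70 ± 0.58, adjusted p = 0.000577, and a value of 1.13 by limma on the log2(FPKM + 1) scale). Library tetoff_10534-3 was thus just above the nontransgenic range and the libraries titled tetoff_10549 well above it. H2-T23, a nonclassical class I gene, was at 5.22, 36.1, 20.5, 22.9 and 14.6 CPM in tet-off hearts, against a lowest of 3.71, a median of 5.33 and a highest of 7.21 CPM in nontransgenic hearts (1.91 ± 0.32, adjusted p = 0.00125, and 0.0703 by limma on FPKM). H2-Eb1, a class II chain, had 2.36 ± 0.57 (adjusted p = 0.0302), a call that ended without any of ntg_10547-3, ntg_10547-5, ntg_10547-7, ntg_10583-1, tetoff_10549-2, tetoff_10549-3 and tetoff_10549-4 (0.0577 to 0.0843). H2-T10 was the fall, at -0.91 ± 0.20 (adjusted p = 0.0168, 0.0525 without tetoff_10549-3 and 0.055 without tetoff_10549-4). For H2-T23, H2-Eb1 and H2-T10 it was library tetoff_10534-3 that overlapped the nontransgenic hearts. Class I and II genes have close copies between which reads may be split, which was not measured here, so these counts are uncertain. B2m, the invariant partner of class I chains on another chromosome, had 0.21 ± 0.18 (adjusted p = 0.708). Of 32 interferon-stimulated genes tested 0 were called by edgeR, DESeq2 or limma, with 8 at an unadjusted p under 0.05 (25%, against 12.1% of all tested genes). Of the 32, 30 had a positive log2 fold change, and the median was 0.30.

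**Figure D4:**
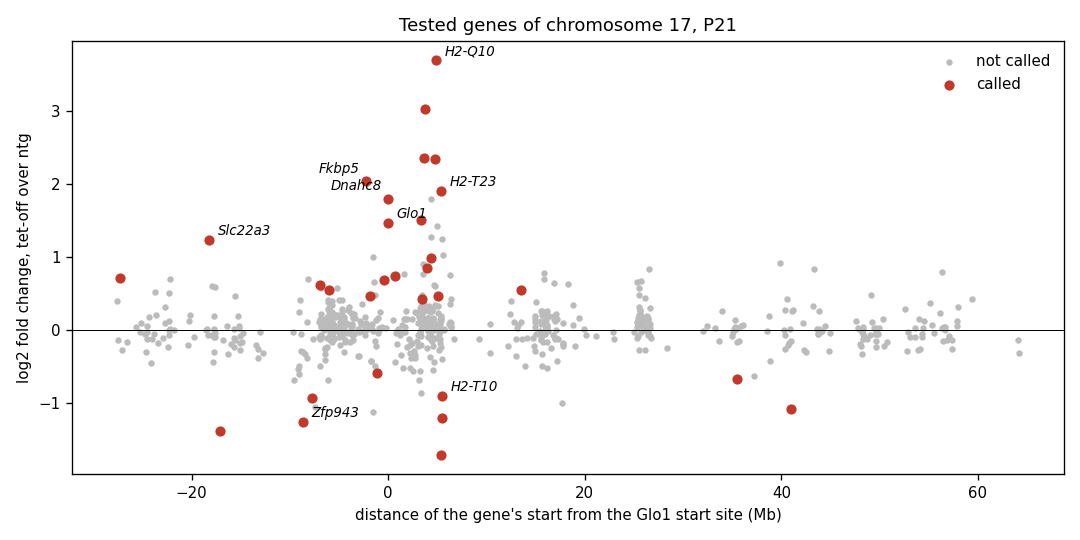
Log2 fold change of tet-off over nontransgenic hearts at P21 for the 668 tested genes of chromosome 17, against the distance of each gene's start from the Glo1 start site in Mb; coloured points were called. Within 10 Mb of Glo1 24 genes were called, 18 of them higher.

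Genes that fell included several outside the lists above. Atcay, which encodes caytaxin, a protein best known from neurons, was at 5.69, 3.11, 2.88, 2.78 and 1.33 CPM in tet-off hearts, against a lowest of 6.71, a median of 10.8 and a highest of 12.4 CPM in nontransgenic hearts (log2 fold change -1.68 ± 0.27, adjusted p = 0.000754). Its exons overlap those of 2310050B05Rik, and without strand the reads of the pair cannot be told apart. Arhgap18, a GTPase-activating protein that shapes actin, was at 11.6, 14.8, 16.4, 13.4 and 11.3 CPM in tet-off hearts, against a lowest of 25.2, a median of 29.6 and a highest of 31.5 CPM in nontransgenic hearts (-1.09 ± 0.14, adjusted p = 0.000107). Adam19, a membrane metalloprotease needed for heart valve and septum formation, was at 38.5, 56.1, 38.8, 38.6 and 35.7 CPM in tet-off hearts, against a lowest of 61, a median of 65.2 and a highest of 74.9 CPM in nontransgenic hearts (-0.68 ± 0.11, adjusted p = 0.000903). None of these groups overlapped. Zfp943, a zinc finger gene of chromosome 17, had -1.27 ± 0.26 (adjusted p = 0.0095), Klhl4 -0.81 ± 0.16 (adjusted p = 0.0078) and the protocadherin Pcdh17 -0.78 ± 0.15 (adjusted p = 0.00406). Akap5, a scaffold for protein kinase A, fell in the count test (-0.87 ± 0.18, adjusted p = 0.0108) but had -0.03 (adjusted p = 0.992) by limma on FPKM.

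Of 38 fatty acid genes tested, 3 fell, none rose and 7 had a positive value, with a median log2 fold change of -0.15. Of all tested genes 0.479% were called lower. Acaa2, the thiolase that ends each round of mitochondrial beta-oxidation, was at 404, 298, 456, 399 and 453 CPM in tet-off hearts, against a lowest of 524, a median of 643 and a highest of 739 CPM in nontransgenic hearts (-0.65 ± 0.13, adjusted p = 0.01). Its groups did not overlap, and its adjusted p was 0.0533 without both libraries of high atrial marker sum. Acadl, the long-chain dehydrogenase, had -0.45 ± 0.12 (adjusted p = 0.0411), a call that ended without any 1 library other than ntg_10547-1 and tetoff_10534-3 (0.0687 to 0.116). Cd36, the fatty acid importer, and Fabp3, its cytosolic carrier, had -0.39 (adjusted p = 0.238) and -0.25 (adjusted p = 0.524).

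The 13 tested genes of mitochondrial DNA had a median log2 fold change of -0.56 with 1 call, where 1.63% of all tested genes were called. mt-Nd5, a core complex I subunit, was at 1350, 1654, 1884, 2124 and 1736 CPM in tet-off hearts, against a lowest of 1348, a median of 2915 and a highest of 3766 CPM in nontransgenic hearts (-0.72 ± 0.18, adjusted p = 0.0367). Nontransgenic library ntg_10547-2 held the lowest value, just under the lowest tet-off library, and the other nontransgenic libraries lay above all tet-off ones. The call ended without any 1 library other than ntg_10547-2 and tetoff_10549-4 (adjusted p of 0.0561 to 0.111), and with 1 title number per line (0.119). Without ntg_10547-2, 6 of the 13 genes were called, among 207 calls over all tested genes in that fit. Mitochondrial transcripts made up 2.42%, 3.5%, 4.63%, 4.34% and 3.18% of counts in tet-off libraries and between 2.81% and 6.57% in nontransgenic libraries. Nuclear genes of mitochondria gave no call. In 9 lists of nuclear mitochondrial genes (tricarboxylic acid cycle, respiratory complexes, ATP synthase, mitochondrial ribosome, import, fusion and fission, mitophagy and biogenesis) 0 of 275 tested genes were called by edgeR, with 15 at an unadjusted p under 0.05 (5.45%). DESeq2 called 1 of them and limma on FPKM 0, and their log2 fold changes ran from -0.59 to 0.55.

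In 4 lists of contractile and electrical genes (adult sarcomere, fetal sarcomere and metabolic isoforms, calcium handling, ion channels), 4 of 85 tested genes were called (4.71%). They were Tnni1, Slc2a1, Cacna2d1 and Gja1. The share called over all tested genes was 1.63%. Tnni1, the slow skeletal troponin I of fetal heart, was at 1.61, 6.21, 0.216, 48.4 and 49.4 CPM in tet-off hearts, against a lowest of 0.601, a median of 1.08 and a highest of 4.4 CPM in nontransgenic hearts. Libraries tetoff_10549-4 and tetoff_10549-5 were high and the other tet-off libraries near the nontransgenic range (log2 fold change 3.74 ± 0.78, adjusted p = 0.01). The adjusted p was 0.0913 with these lines alone in the fit and 0.176 by limma on FPKM. Myh6, the adult cardiac myosin heavy chain, was at 48471, 26805, 35039, 25165 and 49774 CPM in tet-off hearts, against a lowest of 29363, a median of 36145 and a highest of 50469 CPM in nontransgenic hearts (-0.09 ± 0.20, adjusted p = 0.919). Of 22 adult sarcomere genes 0 were called by edgeR, DESeq2 or limma, with 4 at an unadjusted p under 0.05 (18.2%). Gja1, the gap junction protein connexin 43, fell (-0.54 ± 0.12, adjusted p = 0.0142, and 0.0588 without tet-off library tetoff_10549-4). Cacna2d1, a calcium channel subunit, rose (0.74 ± 0.17, adjusted p = 0.0204, 0.0787 without tetoff_10534-3, 0.0795 without tetoff_10549-5, 0.052 without ntg_10547-1 and 0.128 with 1 title number per line). Nppa, the atrial natriuretic peptide, was at 252, 5082, 182, 110 and 96.7 CPM in tet-off hearts, against a lowest of 74.5, a median of 266 and a highest of 4120 CPM in nontransgenic hearts, with the high value of each line in its library of high atrial marker sum (0.35 ± 1.11, adjusted p = 0.945).

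In 14 lists of cell type markers, among them fibroblast, macrophage, atrial and adipocyte markers, 1 of 148 tested genes was called (0.676%). It was the endothelial Aqp1 described above, and 18 of the 148 had an unadjusted p under 0.05 (12.2%). Over all tested genes these shares were 1.63% and 12.1%. Fibroblast markers summed to 3303 to 7662 CPM in tet-off hearts and to 4810 to 6705 CPM in nontransgenic hearts, and macrophage markers to 676 to 788 CPM in tet-off hearts and to 589 to 831 CPM in nontransgenic hearts. The 9 tested adipocyte markers had a median log2 fold change of 1.03. Sums over all 13 listed adipocyte markers, which include untested ones, overlapped, at 859 to 1070 CPM in tet-off hearts and 725 to 1141 CPM in nontransgenic hearts.

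Levels of Fkbp5 and Zbtb16 were also set out by title number within lines. In the Mfn2wt line at P21, Fkbp5 was at 30.3 to 73.1 CPM in 3 libraries titled Mfn2wt_10583 and at 17.2 to 23.2 CPM in 3 titled Mfn2wt_10547. The nontransgenic hearts had 48.8 CPM in the library titled ntg_10583 and 14.5 to 23.4 CPM in those titled ntg_10547. Zbtb16 was at 125 to 210 CPM in libraries titled Mfn2wt_10583 and at 66.8 to 85.2 CPM in those titled Mfn2wt_10547. In nontransgenic hearts Zbtb16 was at 142 CPM in the library titled ntg_10583 and at 74.3 to 120 CPM in those titled ntg_10547. In both lines the libraries with the number of ntg_10583 were thus the higher ones. In tet-off hearts Fkbp5 was at 150 CPM in the library titled tetoff_10534, above the 74.4 to 95.9 CPM of those titled tetoff_10549, whereas Zbtb16, at 313 CPM, lay inside their 274 to 367 CPM. Per2 did not part by number in the Mfn2wt line, at 29.9 to 43.5 CPM in libraries titled Mfn2wt_10583 and 32.9 to 51.4 CPM in those titled Mfn2wt_10547. The 6 Mfn2AA libraries, all titled Mfn2AA_10534, had Fkbp5 at 80.6 to 116 CPM, Zbtb16 at 212 to 288 CPM and Per2 at 55.3 to 79.7 CPM. For these genes the Mfn2AA libraries thus also lay above the nontransgenic range. With 1 title number per line (tetoff_10549 and ntg_10547), 197 genes were called, 110 higher and 87 lower, and 135 of them were among the 222.

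The same lines were compared at P1, from whole hearts, and at 5 weeks. At P1, 177 of 13653 genes were called (1.3%), 108 higher and 69 lower, and at 5 weeks 16 of 13660 (0.117%), 8 in each direction. Tet-off libraries were each made in the batch of their age, so age and batch cannot be told apart in the line effect. At P1 and at 5 weeks too no title number occurred in both lines, and all tet-off libraries of 5 weeks were titled tetoff_10289. Line and number therefore cannot be told apart at these ages either. Nontransgenic RNA of both later ages was also made into libraries in the P1 batch (3 of P21 and 4 of 5 weeks, 6 of them repeats of libraries used here), which entered no test. Scaled by total count alone, Fkbp5 in the P21 repeats was at 23.7, 17.3 and 15.9 CPM in the P1 batch, against 23.6, 19 and 14 CPM for the same hearts in the P21 batch. Zbtb16 was at 112, 72.5 and 72 CPM in the P1 batch, against 121, 77.2 and 79 CPM in the P21 batch. In the 5-week repeats Fkbp5 was at 31.4, 32.3 and 74.7 CPM in the P1 batch, against 23, 26 and 56 CPM in the 5-week batch. Single libraries moved these counts. At P1 it was 89, 73 and 90 without ntg_10582-3, ntg_10582-4 and ntg_10582-5 in that order, 355 without tetoff_10587-1, 87 without tetoff_10587-3, 101 without tetoff_10619-2 and 80 without tetoff_10619-3. At 5 weeks it was 25 without ntg_10287-6, 7 without ntg_15927-6, 6 without ntg_15928-7, 10 without tetoff_10289-2 and 5 without either tetoff_10289-1 or tetoff_10289-3. Of the 222 genes, 11 were called at P1 in the same direction, which is 4.95% of the P21 calls and 6.21% of the P1 calls. Of the 214 tested at P1, 160 (74.8%) had the same sign there, and of the 220 tested at 5 weeks, 88 (40%). The same-sign share over all tested genes is not given here, so these shares cannot be read as particular to the called genes. The 11 were Agfg2, Dnahc8, Endod1, Fam46b, Fbxw7, Glo1, Sesn3, Tgm2, Tmem108, Ttc30b and Zfp945. At 5 weeks Endod1 was called in the same direction, and 2 others in the opposite one. These were Per2 (log2 fold change -2.17 ± 0.36 at 5 weeks, adjusted p = 0.0248) and Adam19 (1.22 ± 0.21, adjusted p = 0.0251).

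The change of the line effect with age was tested in 1 fit over the control libraries of all ages. Because P1 hearts were whole and P21 RNA came from ventricular apex, age and tissue cannot be told apart in the P21 to P1 difference. Between P21 and 5 weeks 129 of 14097 genes differed (0.915%), 81 with a higher and 48 with a lower effect at P21, and 54 of the P21 calls were among them. Between P21 and P1 7 genes differed (0.0497%). That count was 3 without nontransgenic library ntg_10547-2 or ntg_10547-5 or tet-off library tetoff_10549-4 or tetoff_10549-5, 4 without nontransgenic library ntg_10547-1, ntg_10547-3 or ntg_10547-7, and 19 without tet-off library tetoff_10549-2.

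Fkbp5 ran against its P21 direction at 5 weeks. It was at 13.2, 15.1 and 14.1 CPM in tet-off hearts of 5 weeks, against 25.5, 24.4, 25.8 and 60.5 CPM in nontransgenic hearts, so all tet-off values lay below all nontransgenic ones, although the gene was not called at that age (log2 fold change -1.26 ± 0.57, adjusted p = 1). The effect at P21 exceeded that at 5 weeks by 3.29 ± 0.41 on the log2 scale (adjusted p = 1.14e-05), and by 2.88 without nontransgenic library ntg_15935-10, the high one. At P1 Fkbp5 was at 32.3, 34.8, 36.6, 52.9 and 45.1 CPM in tet-off hearts, against a lowest of 23.8, a median of 27.5 and a highest of 30.3 CPM in nontransgenic hearts, again without overlap and not called (0.57 ± 0.16, adjusted p = 0.0801). Zbtb16 was at 42.3, 41.6 and 48.4 CPM in tet-off hearts of 5 weeks, against 162, 191, 155 and 366 CPM in nontransgenic hearts, again without overlap and not called (-2.31 ± 0.59, adjusted p = 0.304). At P1 it was at 13.5, 10.1, 10.7, 10.4 and 10.4 CPM in tet-off hearts, against a lowest of 8.49, a median of 18.9 and a highest of 29.6 CPM in nontransgenic hearts, which overlap. Its effect at P21 exceeded that at 5 weeks by 3.99 ± 0.38 (adjusted p = 9.93e-08) and that at P1 by 2.38 ± 0.34 (adjusted p = 0.00147). Adh1 likewise differed from both ages, by 2.03 ± 0.28 from 5 weeks (adjusted p = 4.18e-05) and by 1.71 ± 0.26 from P1 (adjusted p = 0.00205).

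Over the glucocorticoid and FoxO list the median log2 fold change was -0.15 at P1 and -0.28 at 5 weeks. Against 5 weeks 5 of its 25 genes had a higher effect at P21 and 1, Trim63, a lower one, and against P1 2 had a higher one. Over all tested genes 0.915% differed between P21 and 5 weeks and 0.0497% between P21 and P1. The Trim63 difference of -0.59 ± 0.14 had an adjusted p of 0.0378, a call that ended without ntg_10547-3, ntg_10547-5, ntg_10547-7, tetoff_10534-3, tetoff_10549-2 or tetoff_10549-4 (0.0529 to 0.074). Of the 19 clock genes, 1 was called higher and 6 lower in tet-off hearts at 5 weeks, against 0.117% of all tested genes called. Their effect at P21 was higher than at 5 weeks for 8 and lower for 3, against 0.915% of all tested genes that differed. Per2 was at 12.9, 13.2 and 15.6 CPM in tet-off hearts of 5 weeks, against 41.3, 45.5, 54.4 and 110 CPM in nontransgenic hearts, and its effect at P21 was greater by 2.88 ± 0.32 (adjusted p = 1.34e-06). Arntl was at 9.39, 8.83 and 9.83 CPM in tet-off hearts of 5 weeks, against 1.82, 1.07, 1.82 and 2.02 CPM in nontransgenic hearts, and its effect at P21 was lower by -2.93 ± 0.37 (adjusted p = 1.14e-05). Per2 and Arntl thus moved in opposite directions between these lines at 5 weeks. The hour of sampling is not in the labels, nor is the meaning of tetoff_10289, the title shared by all tet-off libraries of 5 weeks. The part of either in these values was not tested.

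**Figure D5:**
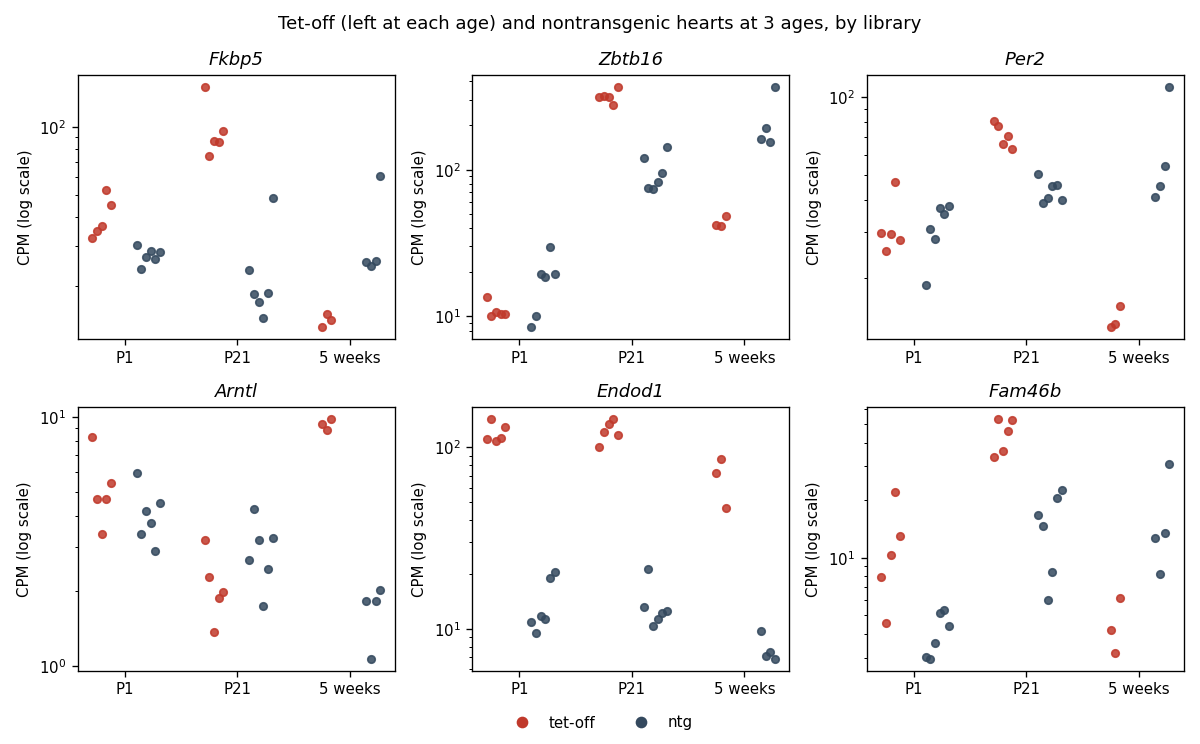
CPM on a log scale for 6 genes in each tet-off (left) and nontransgenic (right) library at P1, P21 and 5 weeks. Endod1 is higher in tet-off hearts at all 3 ages, Fkbp5 and Zbtb16 are called higher at P21, while at 5 weeks all their tet-off values lie below the nontransgenic ones without a call, and Arntl is apart between the lines at 5 weeks.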

How the data were processed

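Per the labels' protocols, polyadenylated RNA was fragmented and sequenced as single-end libraries without strand information. Per the submitters' processing notes, Bowtie2, TopHat2 2.0.10, HTSeq, Cufflinks 2.1, DESeq and edgeR were used with build mm10, and how each was set is not given in the sources used here. The deposited count table holds raw HTSeq read counts for 23428 genes, and the deposited FPKM table holds the authors' length-scaled values, which served for the human Mfn2 transcript and for 1 alternative. Repeated gene names were summed (2 in the count table) and 27 FPKM entries whose gene name had become a date were left out.

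From the counts, edgeR 4.0.16 (R 4.3.3; TMM scaling, filterByExpr, quasi-likelihood F test, Benjamini-Hochberg adjustment, threshold 0.05) was fitted at each age over all 4 genotype groups, at P21 over 23 libraries, and the tet-off and nontransgenic groups were contrasted. Differences of the line effect between ages came from 1 fit of 29 control libraries. SE is the absolute log2 fold change divided by the square root of F. The fits were also run on simulated data with known changes, with an outcome not reported here. The simulated libraries were independent and had no title numbers, so that run could not test the part of title number. Alternatives were RLE scaling, no low-count filter, DESeq2 1.42.0, limma 3.58.1 on log2(FPKM + 1) for genes of mean FPKM 1 or more, the 2 groups alone, each library left out, 1 title number per line, atrial and adipocyte marker scores as terms and a GC correction. A Y-linked score term, leaving out both libraries of high atrial marker sum, and leaving out 5-week nontransgenic library ntg_15935-10 were added after seeing the data.

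The members and gene lists were chosen with earlier results of these data known. The rule for named genes took the transgene, Mfn2, Park2 and Pink1, the 10 greatest rises and falls without overlap and with at least 1 CPM, up to 4 called and 2 uncalled members of each of 49 lists, genes called at all 3 ages, the leading age differences and the leading genes of the chromosome with the highest share of calls. It selected 152 genes, of which the text gives a part, and 1 called member of the fatty acid list is not reported here. Klf15, Fam107a, Nr3c1 and further uncalled members of lists were chosen after their values were seen, as were the promoter motifs. Promoters are RefSeq's on GRCm38.p6. Python 3.11.15, pandas 2.3.3, scipy 1.17.1 and matplotlib 3.10.9 were used.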

Additional observations from a re-analysis of the deposited data

Results flagged for a closer look

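Of 142 groups of values tested for a sample apart from the rest, 11 had one, where chance gives about 1 in 20. In tet-off hearts, library tetoff_10549-2 stood apart with Adam19 at 56.1 CPM, Nppa at 5082 CPM and an atrial marker sum of 11898 CPM, and library tetoff_10549-4 with Timp3 at 216 CPM, the lowest of its line. In nontransgenic hearts, library ntg_10547-2 stood apart with Endod1 at 21.3 CPM, H2-Q2 at 0.137 CPM, mt-Nd5 at 1348 CPM, mt-Co1 at 11036 CPM and an atrial marker sum of 8930 CPM. Nontransgenic library ntg_10547-5 had the highest Glo1 of its line, at 87.5 CPM, and library ntg_10583-1 the lowest Atcay, at 6.71 CPM.

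Among the genes with values checked one by one, the difference between tet-off and nontransgenic hearts was not the same at each age for 26 gene and age pairs, 19 of the 129 called against 5 weeks and all 7 against P1, by the test of that difference itself. Against P1, the log2 fold change at P21 was greater by 2.38 for Zbtb16, 1.71 for Adh1 and 1.13 for Bmf, and these calls remained under all 14 alternatives. It was greater by 0.96 for Tsc22d3, 0.65 for Hexa and 0.75 for Aqp1, and the Atcay difference was -1.48. These 4 calls ended when nontransgenic library ntg_10547-2, ntg_10547-5 or ntg_10547-7 or tet-off library tetoff_10549-4 or tetoff_10549-5 was left out, with adjusted p of up to 0.106. At P21 itself Bmf had a log2 fold change of 0.45 (adjusted p = 0.0458), a call that ended in 17 of 21 alternatives. Its value at P1 was -0.68 (adjusted p = 0.0504). Hexa was not called at P21 (0.18, adjusted p = 0.345) and fell at P1 (-0.47, adjusted p = 0.0106).

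Against 5 weeks, the log2 fold change at P21 was greater by 3.99 for Zbtb16, 3.37 for Fam46b, 3.29 for Fkbp5, 2.97 for Fam107a, 2.88 for Per2 and 2.78 for Map3k6. Smaller positive differences were 2.25 for Hif3a, 2.03 for Adh1, 1.83 for Timp3, 1.54 for Tef, 1.35 for Foxo3, 1.20 for Tsc22d3, 1.11 for Klf15, 0.92 for Aqp1 and 0.55 for Ndrg1. Negative differences were -2.93 for Arntl, -1.91 for Adam19, -1.50 for Akap5 and -0.59 for Trim63. Of these 19 calls, 16 remained under all 15 alternatives. Trim63 lost its call without nontransgenic library ntg_10547-3 (adjusted p = 0.074), among others. Without nontransgenic library ntg_15935-10 of 5 weeks, Hif3a (adjusted p = 0.136) and Ndrg1 (adjusted p = 0.0817) lost theirs.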

How the results depend on the processing

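At P21, against 222 calls, DESeq2 called 336 genes, the 2 groups alone gave 145, and leaving out single libraries gave 118 to 214. At P1, against 177, DESeq2 called 421, limma 94, and single libraries left out gave 73 to 355. At 5 weeks, against 16, DESeq2 called 63, the 2 groups alone gave 5, and single libraries left out gave 5 to 25. For the P21 to P1 difference, against 7, no filter gave 3, DESeq2 44 and single libraries left out 3 to 19. For the P21 to 5-week difference, against 129, DESeq2 called 215 and single libraries left out gave 103 to 157. The cause of these shifts was not tested. The split of 157 higher and 65 lower at P21 became 220 and 30 by limma on FPKM, 120 and 25 with the 2 groups alone, 117 and 79 without tet-off library tetoff_10534-3, and 110 and 87 with 1 title number per line. RLE scaling (218), no filter (190), atrial and adipocyte terms (260), GC correction (193) and, added after seeing the data, the Y-linked term (233) and leaving out both libraries of high atrial sum (173) stayed within 1.5 times. The human transcript difference ran from -0.57 to 0.84 over single libraries left out. Of 44 called genes with values checked under up to 21 alternatives, 21 kept the call in all and none changed sign, and none of 22 uncalled genes was called. The fit of the 2 groups alone takes no spread from the transgenic lines. In it the calls of Ddit4 (adjusted p = 0.0918), H2-T10 (0.0642), Slc2a1 (0.0756), P4ha1 (0.133) and Acadl (0.0923) ended. Those of mt-Nd5 (0.141), Gja1 (0.0696), Cacna2d1 (0.074), Nr3c1 (0.0778) and Tnni1 (0.0913) ended there as well. No paired analysis was possible because the tet-off and nontransgenic libraries at P21 share no title number that could serve as a block. Depth limits genes of low count, and nontransgenic library ntg_10547-3 was the shallowest at 5292335 counts.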
